A study of Mus musculus with 6 samples.

Results

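Rab GTPases are small membrane switches that give each vesicle and organelle its identity. In the GTP-bound state a Rab recruits effectors that move, tether or fuse a vesicle, and exchange factors (GEFs) load GTP while GTPase-activating proteins (GAPs) end the signal. In dendritic cells they steer engulfed antigen through phagosomes and endosomes and carry MHC molecules to and from the surface. The genes described here are those whose symbol is Rab followed by a number and at most 1 letter, and whose mean reached 0.5 TPM (a level per transcript length, scaled to the same total in each library) over the 4 libraries used. There were 59 such symbols, and 44 met this limit, out of 12520 genes that met it in all.

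The cells are MuTuDC1940, a dendritic cell line grown from a tumour of mice that express a viral large T antigen in CD11c-expressing cells. It is 1 line, and every group shares that transformed background. Untreated cells are compared with cells given poly(I:C), a synthetic double-stranded RNA that mimics a viral genome, at 5 µg/ml over 18 hours. The labels list 3 samples per group, and 2 libraries per group are used: those headed NT01 and NT02 (untreated) and PolyIC01 and PolyIC02 (treated), n = 2 libraries per group throughout. All 10 markers of type 1 conventional dendritic cells (cDC1) on the list checked were present, from 5.00 TPM for Flt3 to 2639 TPM for Irf8. With treatment 5 of them fell and 4 rose, Cd24a (-1.42 on the log2 scale), Tlr3 (-0.81), Flt3 (-0.74) and Itgax (-0.71) among those that fell and Xcr1 (0.78) among those that rose. B and T cell markers were low, with Cd3e and Cd3g at 0 in the 4 libraries and a summed level of 4.19 and 4.26 TPM untreated and 8.33 and 7.24 TPM treated. Macrophage markers summed to 228 and 227 TPM untreated, mostly Lyz2, and to 118 and 127 TPM treated. Within that list Lyz2 fell, and 3 of the 5 tested genes rose: Fcgr1 was at 0.356 and 0.299 TPM untreated and 4.76 and 4.66 TPM treated, C5ar1 at 0.112 and 0.0216 against 1.27 and 1.20 TPM, and Cd14 at 8.06 and 8.37 against 12.2 and 12.0 TPM. Mertk and Cd163 were near 0 throughout. Of the plasmacytoid markers Ly6d was at 0 in the 4 libraries, Siglech stayed under 0.5 TPM, and Bst2, which interferon also induces, made up most of a sum of 199 and 201 TPM untreated and 1303 and 1276 TPM treated. On the same list Pacsin1 was at 0.402 and 0.318 TPM untreated and 3.90 and 4.02 TPM treated, and Cox6a2 at 16.0 and 16.1 against 12.2 and 11.8 TPM. Fcgr1, C5ar1 and Pacsin1 met the 0.5 TPM limit only through the treated libraries. The part of such markers in the Rab results was not tested. Of 6 interferon response genes checked, 5 were above the limit in every library and rose, Isg15 for one from 81.4 and 78.2 TPM to 1078 and 1038 TPM. The sixth, Irf7, met the limit only through the treated libraries.

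In bulk RNA a change in the mix of cell states and a change of RNA per cell cannot be told apart. TPM keeps no record of depth, so no counting interval can be given. Whether replicates came from separate cultures is not given in the labels; p-values here reflect how much these libraries varied, and that variation may be technical.

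The start regions of 4 members are printed here. They are Rab20, the member with the largest rise, Rab8a, an abundant member that rose, and Rab25 and Rab1b, the members with the deepest falls. Rab12, Rab7b, Rab30 and Rab40c rose more than Rab8a and are not printed. Each line is the 250 bases before the annotated start (RefSeq, GRCm38.p6, read 5′ to 3′ on the gene's strand), and capitals mark a match to 1 of the 5 motifs named below.
Rab20: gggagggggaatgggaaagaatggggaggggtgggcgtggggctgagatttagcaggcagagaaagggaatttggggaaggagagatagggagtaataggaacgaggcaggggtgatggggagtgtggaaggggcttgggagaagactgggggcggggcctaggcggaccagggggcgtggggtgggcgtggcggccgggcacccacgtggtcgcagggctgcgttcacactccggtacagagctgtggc
Rab8a: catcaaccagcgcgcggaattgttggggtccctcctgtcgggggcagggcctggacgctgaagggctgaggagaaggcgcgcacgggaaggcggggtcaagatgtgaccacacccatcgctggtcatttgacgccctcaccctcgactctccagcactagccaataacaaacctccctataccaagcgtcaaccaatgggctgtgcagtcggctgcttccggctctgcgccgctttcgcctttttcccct
Rab25: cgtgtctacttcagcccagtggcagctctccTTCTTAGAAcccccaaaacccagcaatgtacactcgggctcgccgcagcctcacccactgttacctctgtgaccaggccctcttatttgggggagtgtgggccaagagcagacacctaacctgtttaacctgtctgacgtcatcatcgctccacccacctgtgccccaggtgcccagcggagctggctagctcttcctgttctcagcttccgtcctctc
Rab1b: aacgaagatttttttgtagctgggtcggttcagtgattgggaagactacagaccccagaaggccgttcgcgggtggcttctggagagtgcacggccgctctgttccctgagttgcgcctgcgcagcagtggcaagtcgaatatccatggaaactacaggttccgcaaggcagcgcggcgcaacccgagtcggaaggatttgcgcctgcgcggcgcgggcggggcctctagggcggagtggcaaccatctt

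The Rab20 window lies at chr8:11478641-11478890 (minus strand), Rab8a at chr8:72160950-72161199 (plus), Rab25 at chr3:88548280-88548529 (minus) and Rab1b at chr19:5106997-5107246 (minus). GC content was 65.2% for Rab20, 61.6% for Rab8a, 58.4% for Rab25 and 60.8% for Rab1b, and the windows held 12, 18, 8 and 23 CpG in the same order. Over the 47 windows of the 39 members that the table covers, the median was 62.0% GC and 18 CpG, against 52.4% and 6 over all 32851 windows. The windows of these 39 members thus had a higher median of GC and CpG than all windows, which were not limited to expressed genes. Rab25 lies below the members' median on both measures.

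Motifs were searched on both strands of these windows. The interferon-stimulated response element (GAAA, any 2 bases, GAAA) was found in 1 of 39 members, Rab19, as TTTCCCTTTC in the last 10 bases before the start; it occurs in 2.98% of all windows. The STAT site GAS (TTCNNNGAA) was found in 3 members, Rab11a, Rab19 and Rab25, and in 7.02% of all windows. The lysosomal E-box (TCACGTGA, the core read by TFEB) was found in Rab21 and Rab5a, and in 0.785% of all windows. No member held the NF-kB letters (GGGA, any base, TTTCC) (0.356% of all windows) or the AP-1 letters TGANTCA (6.75%). None of the matches overlapped another, and the Rab20, Rab8a and Rab1b windows had none. Members were counted per gene, and some have several windows, while the percentages are per window, so the 2 are unlike measures. A match is a stretch of letters and not a bound site.

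All 44 members stood above the limit in each of the 4 libraries, the lowest single value being 0.551 TPM for Rab25 in PolyIC01, so none entered through 1 group alone. The family was well expressed: the median member had a mean of 50.4 TPM, against 17.7 TPM over all genes tested, and 12 members exceeded 100 TPM. Rab7, the master regulator of late endosomes and phagosome-lysosome fusion, was the most abundant, at 441 and 438 TPM untreated and 552 and 562 TPM treated. After it came Rab7b, a relative that moves cargo from late endosomes to the Golgi and dampens Toll-like receptor signalling, at 263 and 260 TPM untreated and 419 and 417 TPM treated. Rab1b, which serves transport from endoplasmic reticulum (ER) to Golgi, stood at 347 and 356 TPM untreated and 222 and 233 TPM treated. Rab43, a Golgi Rab known to be needed for cross-presentation by cDC1, had 258 and 260 TPM untreated and 305 and 308 TPM treated. Its main coding transcript was at 164 and 174 TPM untreated and 188 and 190 TPM treated. A curated non-coding transcript of Rab43 held 81.4 and 73.5 TPM untreated and 103 and 110 TPM treated. Rab5c, of early endosomes, had 259 and 264 TPM untreated and 294 and 307 TPM treated. These 5 genes held 42.9% of the family's TPM in untreated and 41.6% in treated cells. In untreated cells the order began with Rab7 and Rab1b; in treated cells it began with Rab7 and Rab7b. The order of Rab7b, Rab5c and Rab43 in untreated cells, with values between 258 and 264 TPM, is not separated by the spread of the libraries.

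**Figure D1:**
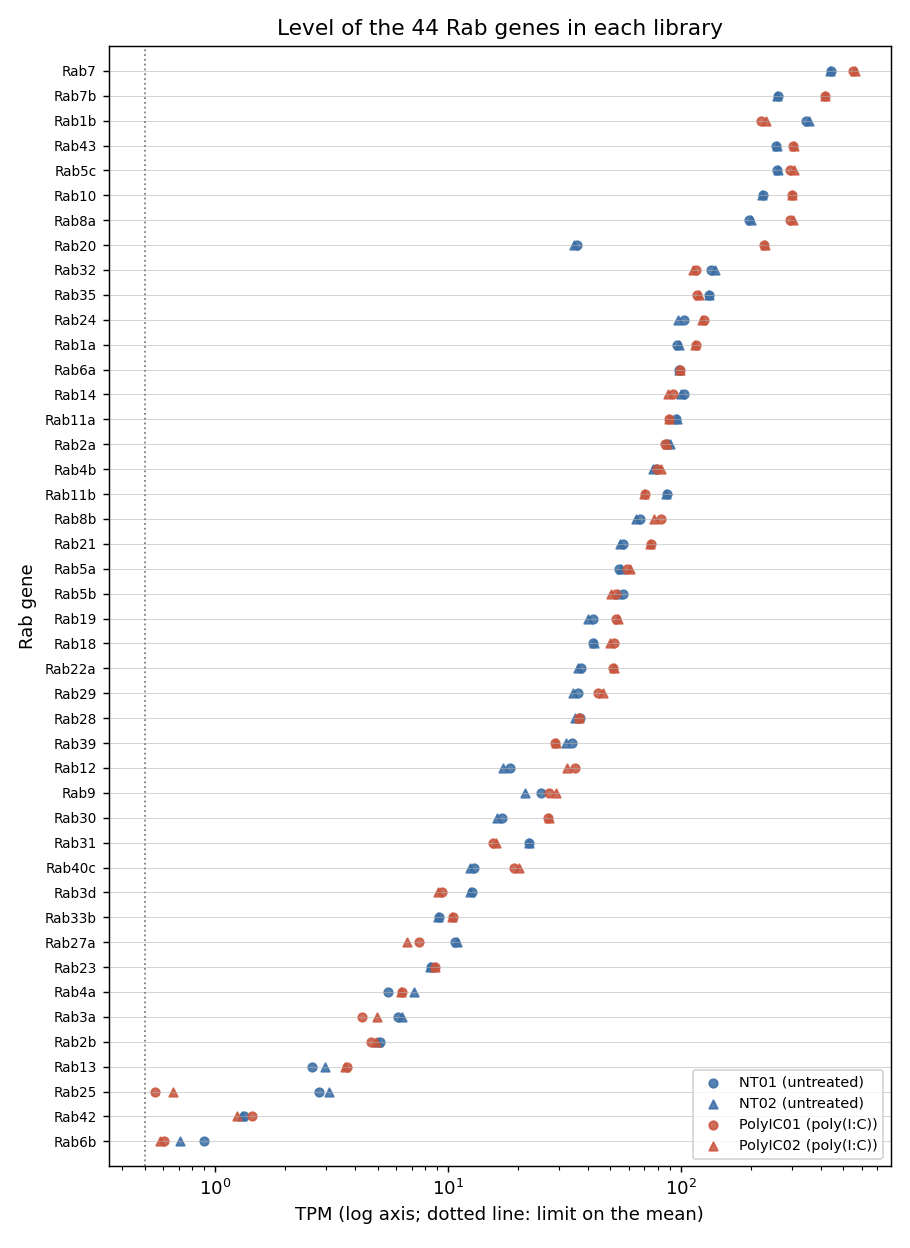
Level of each of the 44 Rab genes (TPM, log axis) in each of the 4 libraries, ordered by mean; blue marks untreated and red treated libraries, and the dotted line is the 0.5 TPM limit on the mean. Rab7 leads at 438 to 562 TPM, Rab20 shows the widest gap between groups (34.9 to 35.8 against 229 to 231 TPM), and Rab25 nears the limit in treated cells.

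The 15 symbols under the limit were Rab3b, Rab3c, Rab9b, Rab15, Rab17, Rab26, Rab27b, Rab33a, Rab34, Rab36, Rab37, Rab38, Rab39b, Rab40b and Rab44. Of these, Rab15, Rab17, Rab36, Rab37 and Rab38 were listed at 0 in all 4 libraries. Just inside the limit lay Rab6b, with a mean of 0.698 TPM, and the highest outside it was Rab40b with 0.187 TPM.

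With poly(I:C), 22 of the 44 Rab genes rose and 12 fell (limma, adjusted p under 0.05 by Benjamini-Hochberg over all 12520 genes), and 10 did not pass. Among all genes tested 28.4% rose and 32.4% fell. The members' shares were 50% and 27.3%. Of the 34 members with a mean of at least 10 TPM, 20 (58.8%) rose and 9 (26.5%) fell, where 29.7% of all genes at that level rose and 39.7% fell (69.4% in either direction). Because 60.8% of all genes passed, a call on its own sets a member little apart, and the size of the change matters more. The members' median log2 fold change (of TPM + 1) was 0.09, against -0.02 over all genes, and the median size without sign was 0.27 for both. The groups were free of overlap for 41 members (93.2%) and for 81.3% of all genes; Rab4a, Rab28 and Rab42 overlapped. For a single gene, permuting 2 libraries per group allows no two-sided exact p smaller than 0.333.

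Most changes were small. Of the 34 members that passed, 25 differed by less than 1.5-fold in mean TPM. The 9 that differed by more were 6 that rose (Rab20, Rab12, Rab30, Rab7b, Rab40c and Rab8a) and 3 that fell (Rab25, Rab1b and Rab27a). The share of all genes at 1.5-fold was not counted. Small changes are not particular to the family, as the median size was 0.27 for members and for all genes. By 2-fold or more on the same log2 scale, 1 member rose and 1 fell, where 5.69% and 2.76% of all genes did so. The family's summed level was 3671 and 3664 TPM untreated and 4330 and 4364 TPM treated, 1.19 times as high, and 1.13 times without Rab20. Summed over the members that rose the gain was 898 TPM, 72.0% of it from Rab20, Rab7b, Rab7, Rab8a and Rab10; over the members that fell the sum changed by -218 TPM, most of it Rab1b (-124 TPM).

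**Figure D2:**
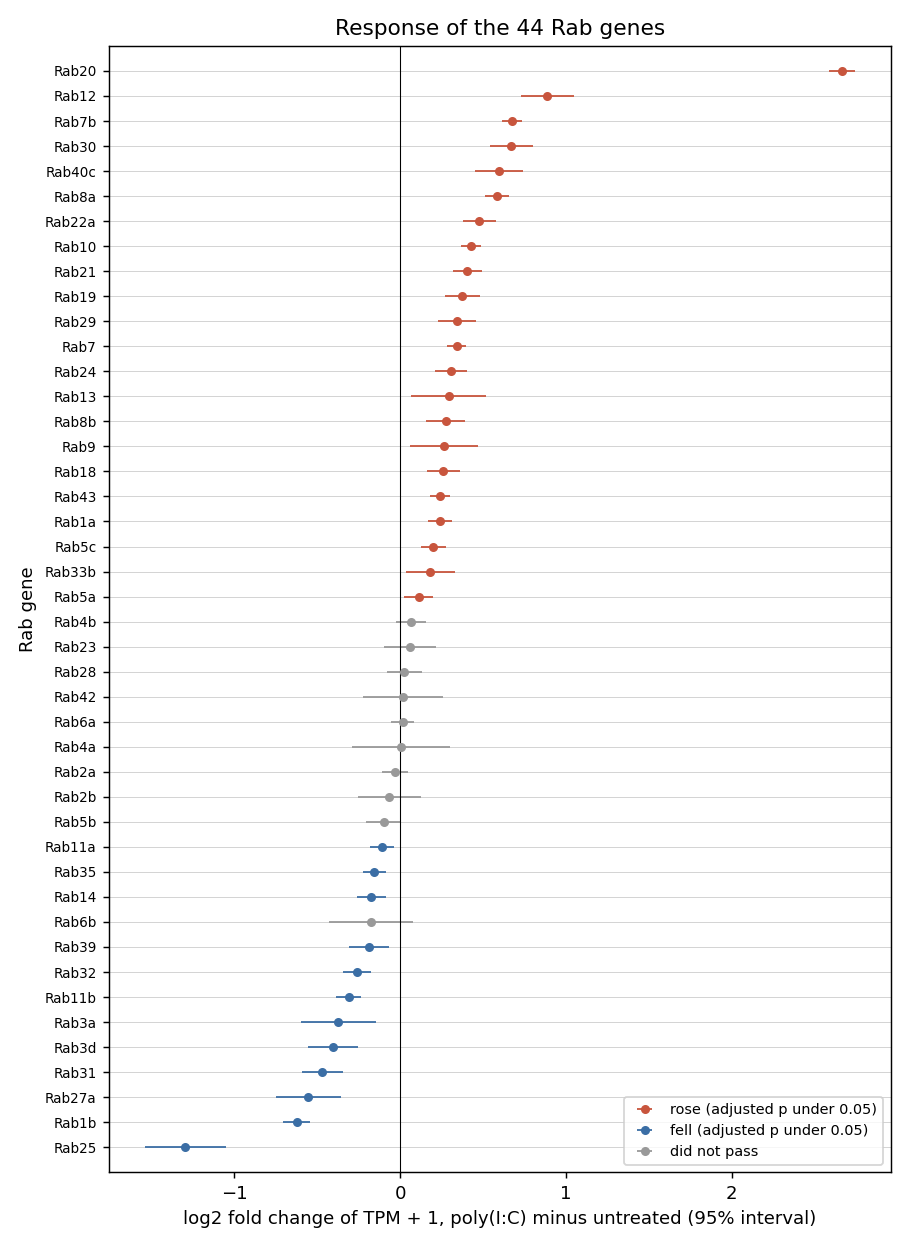
Log2 fold change of TPM + 1, poly(I:C) minus untreated, for each of the 44 Rab genes, with its 95% interval from limma; red rose, blue fell, grey did not pass. Rab20 stands alone at 2.67 and Rab25 at -1.30, and the other members lie between -0.62 and 0.89.

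Rab20 changed most. It is a Rab of phagosomes and early endosomes that interferon gamma induces in macrophages, where it prolongs the early phase of phagosome maturation. Rab20 (chromosome 8, 11453390 to 11478640, GRCm38) had 35.8 and 34.9 TPM without treatment and 229 and 231 TPM with it. Both treated libraries were far above both untreated ones, a 6.50-fold difference in mean TPM (2.67 on the log2 scale with an SE of 0.031; limma adjusted p = 4.73e-07). Its curated transcript went from 11.9 and 11.3 to 75.4 and 77.8 TPM and its predicted transcript from 24.0 and 23.7 to 153 and 154 TPM. The 2 transcripts may share reads, so these values need not be independent. By level Rab20 stood at 0.965% of the family's TPM before and 5.29% after treatment.

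The other tested Rabs assigned to phagosomes and lysosome-related organelles did not follow Rab20. Rab7 (0.34 on the log2 scale), also tied to phagosomes, was assigned to another site and rose. Rab14 (-0.17), Rab27a (-0.55) and Rab11a (-0.11), likewise tied to phagosomes and assigned elsewhere, fell. Rab32, which directs cargo to lysosome-related organelles and to vacuoles holding bacteria, fell from 135 and 141 TPM to 117 and 114 TPM (log2 fold change -0.26, adjusted p = 0.00130 in limma). Rab39, a Rab of late endosomes and phagosomes, was at 34.2 and 32.3 TPM untreated and 29.0 and 29.2 TPM treated. It fell by 0.19 on the log2 scale, but this call was lost without NT01 (adjusted p = 0.0691), without PolyIC01 (0.0844) and without PolyIC02 (0.0699). Rab42, a relative of Rab39, was near 1.3 TPM in both groups and overlapped (0.02, 95% interval -0.22 to 0.26). Without Rab20, the tested genes assigned to this site summed to 171 and 175 TPM untreated and 147 and 144 TPM treated. With it, 207 and 210 TPM stood against 376 and 375 TPM.

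All 6 tested Rabs assigned to late endosomes and lysosomes were higher with treatment, at a median of 0.34 on the log2 scale. The shares over all genes were 28.4% higher and 32.4% lower. Rab39 (-0.19), also of late endosomes, and Rab27a (-0.55), of secretory lysosomes, were assigned to other sites and fell. The shared direction thus holds for the list as drawn up, which was chosen with earlier results of these data known. Rab12, which sends receptors from recycling endosomes to lysosomes, went from 18.6 and 17.2 TPM to 35.3 and 32.6 TPM (1.90-fold; 0.89 on the log2 scale with an SE of 0.063; limma adjusted p = 0.000125). Rab7b, with the values given above, was 1.60-fold higher (0.67, SE 0.023, adjusted p = 1.00e-05). Rab7 itself was 1.27-fold higher (0.34, SE 0.023, adjusted p = 0.000109). For these 3 genes the treated libraries lay clear of the untreated ones. Rab29, which acts at the Golgi and at stressed lysosomes, rose by 0.34 from 36.4 and 34.7 TPM to 44.4 and 46.3 TPM, and Rab24, tied to autophagosomes, by 0.31 from 104 and 97.8 TPM to 126 and 124 TPM. Rab9, which returns receptors from late endosomes to the Golgi, had 25.2 and 21.6 TPM untreated and 27.4 and 29.1 TPM treated. Its call (0.26, adjusted p = 0.0365) was lost without NT02 (0.0870), without PolyIC01 (0.0597) and without PolyIC02 (0.141). The summed level of the 6 genes was 888 and 870 TPM untreated and 1204 and 1210 TPM treated, which is 24.2% and 23.7% of the family's TPM before and 27.8% and 27.7% after treatment. Rab7b and Rab29 are neighbours on chromosome 1 with 151.8 kb between them, and Rab43 and Rab7 on chromosome 6 with 186.9 kb between them; all 4 rose. No other members lay within 500 kb of each other.

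Of the 7 tested Rabs assigned to recycling endosomes, 5 fell and none rose, with a median of -0.16. Among all genes 32.4% fell and 28.4% rose. Rab8a (0.59) and Rab22a (0.48), also tied to recycling, were assigned to other sites and rose. The difference between the recycling and late endosomal groups was not tested. Rab25, a relative of Rab11 best known from epithelial cells, was at 2.79 and 3.10 TPM untreated and 0.551 and 0.659 TPM treated. The groups lay far apart, 4.86-fold in mean TPM (-1.30 on the log2 scale with an SE of 0.098, limma adjusted p = 0.000155), at a level that is low for this family. Rab11b, of the slow recycling route, fell from 87.1 and 87.1 TPM to 70.5 and 69.5 TPM (-0.31, adjusted p = 0.000422). Rab11a, which brings MHC class I from recycling endosomes to phagosomes, went from 95.4 and 96.5 TPM to 89.0 and 89.0 TPM, a fall of 7.24%. That call (-0.11, adjusted p = 0.0217) was lost without NT02 (0.0836), without PolyIC01 (0.0952) and without PolyIC02 (0.0970). Rab35, of fast recycling at the cell surface, fell from 133 and 133 TPM to 118 and 120 TPM (-0.16), and Rab14, which works between Golgi, endosomes and phagosomes, from 104 and 101 TPM to 92.4 and 88.5 TPM (-0.17). Rab4a (5.55 and 7.16 against 6.38 and 6.28 TPM) and Rab4b (78.6 and 76.4 against 79.4 and 82.8 TPM) did not pass, with 95% intervals of -0.29 to 0.30 and -0.03 to 0.16 on the log2 scale. The group summed to 506 and 504 TPM untreated and 456 and 457 TPM treated.

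The 6 early endosomal Rabs had a median of 0.16, and 4 of them rose, 1 fell and 1 did not pass. Among all genes 28.4% rose and 32.4% fell. Rab22a, which recruits ER-Golgi intermediate membranes and recycling cargo to endosomes, went from 37.5 and 36.2 TPM to 51.5 and 52.0 TPM (1.40-fold, log2 fold change 0.48, adjusted p = 0.000226 in limma). Rab21, of integrin endocytosis, rose from 56.7 and 55.1 TPM to 74.8 and 73.9 TPM (0.41), and Rab5c by 0.20 from the levels above. Rab31, closest to Rab22a in sequence and a carrier between the Golgi network and endosomes, fell from 22.4 and 22.4 TPM to 15.7 and 16.1 TPM (-0.47, adjusted p = 0.000587). In each of these genes the groups did not overlap. Rab5a, with 54.7 and 55.8 TPM untreated and 59.0 and 60.4 TPM treated, had a call (0.11, adjusted p = 0.0385) that was lost without any 1 of the 4 libraries (adjusted p = 0.126 without NT01, 0.0647 without NT02, 0.0971 without PolyIC01 and 0.196 without PolyIC02). Rab5b was at 56.5 and 54.1 TPM untreated and 52.6 and 50.5 TPM treated and did not pass (95% interval -0.20 to 0.01).

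**Figure D3:**
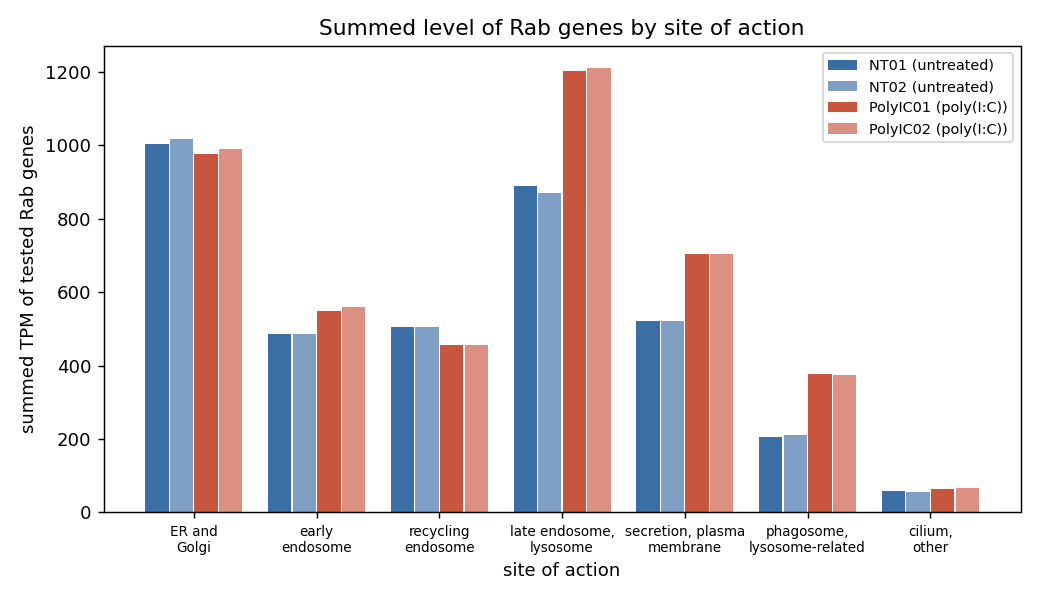
Summed TPM of the tested Rab genes by site of action, 1 bar per library, blue untreated and red treated. The late endosome group stands at 870 to 888 TPM untreated and 1204 to 1210 TPM treated, and the recycling group at 504 to 506 against 456 to 457 TPM; the phagosome bars differ through Rab20.

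At the secretory end, 4 of 7 tested Rabs of secretion and the plasma membrane rose and 3 fell (28.4% and 32.4% of all genes). Rab8a, which drives transport from Golgi and recycling endosomes to the surface, went from 196 and 202 TPM to 295 and 303 TPM (50.3% higher, 0.59 on the log2 scale with an SE of 0.029, limma adjusted p = 3.22e-05). Rab10, a close relative that carries Toll-like receptor 4 to the surface, rose from 225 and 223 TPM to 302 and 301 TPM (0.43, SE 0.024, adjusted p = 5.01e-05). Rab8b rose from 67.2 and 64.4 TPM to 82.8 and 77.0 TPM (0.28). In each of these 3 genes the treated libraries lay above the untreated ones. Rab27a, which docks secretory lysosomes and in dendritic cells brings the NADPH oxidase to phagosomes, fell from 10.8 and 11.0 TPM to 7.53 and 6.66 TPM (-0.55, adjusted p = 0.00182). Rab3d, of secretory granules, fell from 12.8 and 12.5 TPM to 9.50 and 9.11 TPM (-0.40), and Rab3a from 6.14 and 6.38 TPM to 4.28 and 4.95 TPM (-0.37). The call of Rab3a (adjusted p = 0.0149) was lost without PolyIC01 (0.0850). Rab13, of tight junctions, was at 2.63 and 2.97 TPM untreated and 3.68 and 3.61 TPM treated; its call (0.29, adjusted p = 0.0357) was lost without NT01 (0.126), without PolyIC01 (0.146) and without PolyIC02 (0.120). Most of the TPM of Rab13 belonged to a predicted non-coding transcript (1.80 and 2.02 TPM untreated, 2.59 and 2.96 TPM treated), and curated transcripts alone gave -0.02 (adjusted p = 0.934).

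Of 11 Rabs of the ER and Golgi 6 rose, 1 fell and 4 did not pass. Among all genes 28.4% rose and 32.4% fell. The one that fell, Rab1b, was 1.54-fold lower in mean TPM (-0.62 on the log2 scale with an SE of 0.033, limma adjusted p = 4.08e-05). Rab30, of the Golgi, rose from 17.1 and 16.3 TPM to 26.9 and 27.3 TPM (1.63-fold, 0.67, adjusted p = 0.000167). Rab19, also of the Golgi, rose by 0.37 from 42.2 and 40.0 TPM to 53.1 and 53.9 TPM. Rab18, which acts on ER and lipid droplets, rose from 42.1 and 42.3 TPM to 52.0 and 49.7 TPM (0.26). Rab43 rose by 0.24 (limma adjusted p = 0.000448), with its coding and non-coding transcripts summed. Rab1a, which shares its role with Rab1b, rose from 96.7 and 99.0 TPM to 116 and 115 TPM (0.24). Rab33b, of the Golgi and autophagosomes, had 9.21 and 9.06 TPM untreated and 10.5 and 10.5 TPM treated, with a call (0.18, adjusted p = 0.0422) lost without any 1 library (adjusted p between 0.0800 without NT01 and 0.185 without PolyIC01, with 0.115 without NT02 and 0.164 without PolyIC02). Rab6a, the main Rab of the trans-Golgi, hardly moved, at 98.2 and 98.4 TPM untreated and 99.2 and 99.6 TPM treated (95% interval -0.05 to 0.08). Rab2a and Rab2b, of the ER-Golgi boundary, and Rab6b did not pass. The ER and Golgi group summed to 1004 and 1017 TPM untreated and 976 and 990 TPM treated. Its share of the family's TPM was 27.3% and 27.7% untreated and 22.5% and 22.7% treated.

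Among the remaining members Rab40c, an unusual Rab that joins a ubiquitin ligase through a SOCS box, rose from 13.0 and 12.4 TPM to 19.3 and 20.2 TPM (1.55-fold, log2 fold change 0.60, adjusted p = 0.000425 in limma). Rab23 and Rab28, known from cilia, did not pass. Their 95% intervals were -0.10 to 0.22 and -0.08 to 0.13.

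Closely related Rabs did not always share a direction. Of 13 pairs of related members tested, 6 moved the same way, 2 moved in opposite ways and 5 had a member that did not pass. The pairs are not independent, because Rab5a, Rab5b, Rab5c and Rab8a recur among them. In the pair of Rab1a and Rab1b the ratio of Rab1b to Rab1a was 3.59 and 3.60 untreated and 1.91 and 2.02 treated. In the pair of Rab22a and Rab31 the ratio of Rab31 to Rab22a was 0.598 and 0.619 untreated and 0.305 and 0.311 treated. Both genes of each pair passed, in opposite directions. Rab7b rose with Rab7, and the ratio of Rab7b to Rab7 was 0.595 in both untreated libraries and 0.759 and 0.742 in the treated ones. The ratio of Rab8b to Rab8a was 0.343 and 0.319 untreated and 0.281 and 0.254 treated. For Rab3d to Rab3a the ratios of the groups overlapped (2.08 and 1.96 against 2.22 and 1.84), as did those of Rab4b to Rab4a. These ratios are between levels per length, and related transcripts may share reads.

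**Figure D4:**
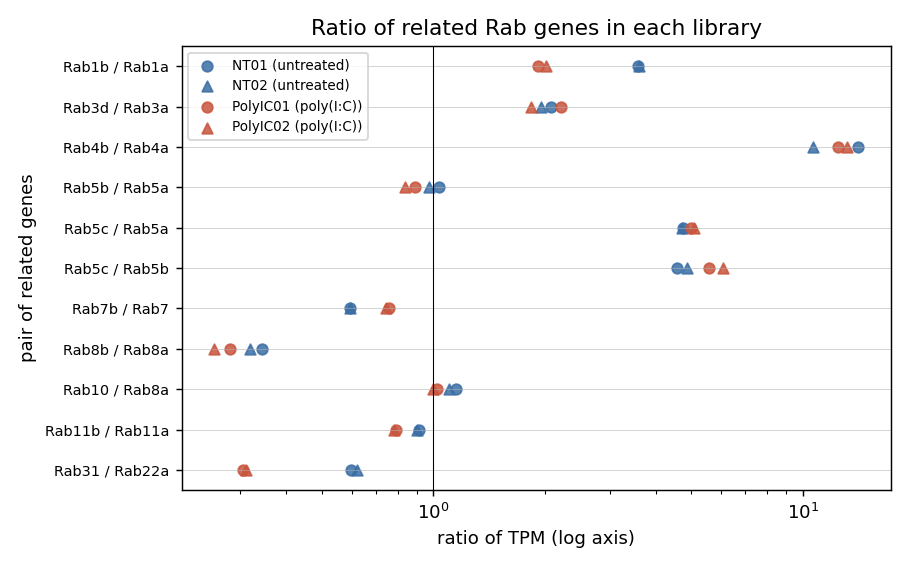
Ratio of TPM within pairs of related Rab genes (log axis) in each library, blue untreated and red treated; the pairs with Rab2b and Rab6b, whose ratios are far lower, are left out. The ratio of Rab1b to Rab1a is 3.59 to 3.60 untreated and 1.91 to 2.02 treated, and that of Rab31 to Rab22a 0.598 to 0.619 against 0.305 to 0.311.

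The title of the series concerns cross-presentation, and 12 Rabs tied to it were listed. The list was chosen with earlier results of these data known and need not hold every Rab tied to cross-presentation. Of the 12 listed, 9 were tested, and all 9 passed, a count that holds for the list as drawn up. Rab8b, Rab10, Rab22a and Rab43 rose, and Rab11a, Rab14, Rab27a, Rab35 and Rab39 fell. Their median log2 fold change was -0.11 and their range -0.55 to 0.48, and the calls of Rab11a and Rab39 were those lost without single libraries. Over all genes 60.8% were called, and 69.4% of those with at least 10 TPM, so a call does not set these genes apart. Rab34, which slows phagosome maturation in stimulated dendritic cells, stayed under 0.21 TPM in all 4 libraries, and Rab3b and Rab3c under 0.05 TPM. The 9 genes summed to 965 and 957 TPM untreated and 1077 and 1072 TPM treated.

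Rabs reach membranes through a lipid anchor and are retrieved by a dissociation inhibitor. Of 8 genes of prenylation and membrane cycling none rose and 4 fell: Rabggta, a subunit of the enzyme that attaches the lipid anchor (8.50 ± 0.255 to 5.67 ± 0.333 TPM, SD), Rabac1, which helps Rabs onto membranes (67.6 ± 1.82 to 48.1 ± 2.37 TPM), Rabif (33.6 ± 0.107 to 29.4 ± 0.256 TPM), and Gdi2, which extracts Rabs from membranes (584 ± 1.14 to 521 ± 14.1 TPM). Gdi2 is named here because it completes the count, after its values were seen. The median of the list was -0.10. Over all genes 28.4% rose and 32.4% fell, and 2 genes of this list rose once each library was centred on its median.

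Among 37 tested Rab GEFs, 13 were higher, 6 were lower and 18 missed the threshold; the median was 0.06. The shares over all genes, 28.4% higher and 32.4% lower, are the background for this list and for those that follow. The number of lower GEFs was 3 in limma without trend or robust moderation and with curated transcripts only. Dennd4a, a GEF for Rab10, rose from 11.0 ± 1.86 to 19.7 ± 1.18 TPM (0.80), and Dennd1b, of a family that acts on Rab35, from 30.7 ± 0.666 to 47.6 ± 2.45 TPM (0.62). The deepest fall was that of Rab3ip, the GEF known as Rabin8 that acts on Rab8, from 3.58 ± 1.17 to 1.15 ± 0.345 TPM (-1.07, adjusted p = 0.00758). Dennd2a (-0.53) and the Rab3ip relative Rab3il1 (-0.46) also fell.

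Of 32 Rab GAPs tested 16 rose and 3 fell, with a median of 0.15 (28.4% and 32.4% of all genes). Rabgap1l, whose product acts on endosomal Rabs, rose from 20.7 ± 0.179 to 39.4 ± 1.89 TPM (0.90 on the log2 scale, limma adjusted p = 5.36e-05), Sgsm3 from 25.9 ± 0.429 to 48.8 ± 0.571 TPM (0.89) and Tbc1d17 from 13.6 ± 0.729 to 22.6 ± 0.416 TPM (0.70). Tbc1d10c, a GAP of blood cells that also restrains Ras and calcineurin, fell from 14.0 ± 0.666 to 7.77 ± 0.508 TPM (-0.77). Tbc1d9b (-0.46) and Tbc1d22b (-0.25) fell less.

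Of 40 Rab effectors tested 16 rose and 9 fell, with a median of 0.05; the share called was close to the 60.8% of all genes. The largest rises on this scale were those of Rilpl1 (0.395 ± 0.00536 to 2.15 ± 0.0208 TPM, log2 fold change 1.18) and Rilpl2 (14.7 ± 0.00997 to 33.3 ± 0.136 TPM, 1.13, adjusted p = 1.74e-05 in limma), related proteins that bind phosphorylated Rab8 and Rab10. Rilpl1 met the limit on the mean only through its treated values. Rufy3, which links endolysosomes to motors, rose from 38.4 ± 1.28 to 84.5 ± 2.01 TPM (1.12). Ocrl, a phosphoinositide phosphatase of endosomes (-0.57), Appl1, an adaptor of early Rab5 endosomes (-0.40), and Mical3, an enzyme of secretory vesicle fusion (-0.39), fell most.

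The Arf, Arl and Sar1 genes, a neighbouring family of vesicle GTPases, had 26 tested members, of which 8 were higher, 7 lower and 11 under the threshold, shares near the 28.4% and 32.4% of all genes. Their median was 0.06 and their range -0.87 to 0.95. Arf2 rose from 37.3 ± 0.702 to 73.0 ± 0.372 TPM (0.95 on the log2 scale, limma adjusted p = 1.36e-05), and Arl8a, which moves lysosomes along microtubules, from 140 ± 5.29 to 215 ± 2.99 TPM (0.61). Arl9, at 0.911 and 0.556 TPM untreated and 1.34 and 2.08 TPM treated, rose by 0.64. Arl15 (-0.87), Arl10 (-0.65) and Arl4d (-0.58) fell. The difference between this family and the Rab genes was not tested.

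**Figure D5:**
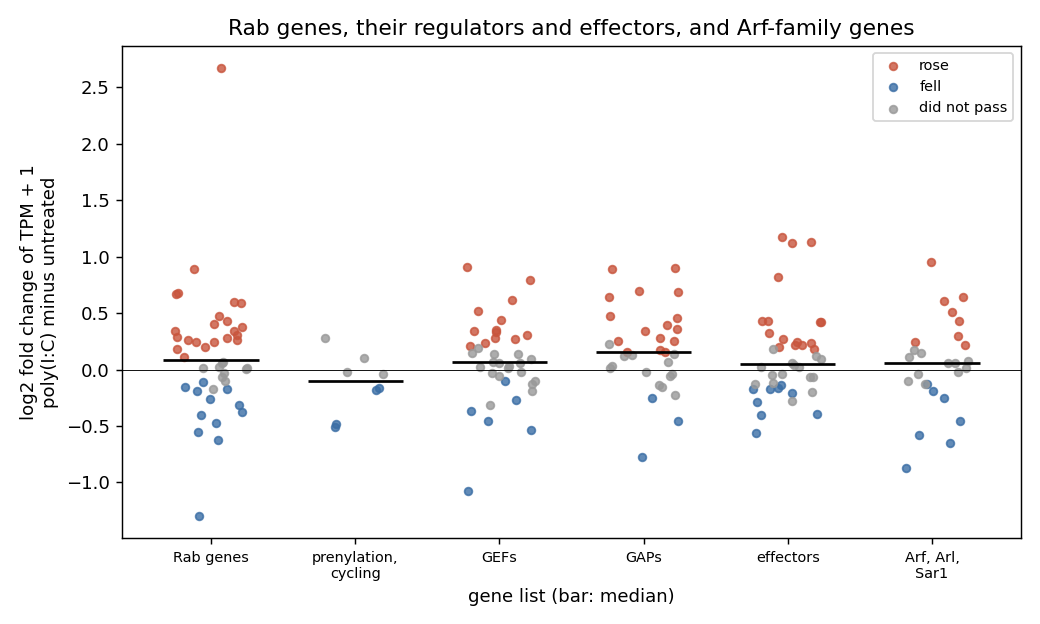
Log2 fold change of TPM + 1, poly(I:C) minus untreated, of each tested gene in 6 lists; 1 point per gene, red rose, blue fell, grey did not pass, and the bar is the list's median. Medians lie between -0.10 (prenylation and cycling) and 0.15 (GAPs), with 0.09 for the Rab genes, and Rab20 at 2.67 is above every other gene shown.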

How the data were processed

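Libraries were made by poly(A) capture with a directional kit, per the labels' protocols. Quantification with kallisto 0.42.4, the build GRCm38 and bcl2fastq 2.20.0.422 are listed by the submitters' processing notes, with no strand setting given in the sources used here. Although FPKM stands in the name of the deposited file, every column used adds up to 1000000, and its transcript values are treated as TPM deposited by the authors; depth is unknown. Its header holds an empty cell after NT01, so later headings may stand 1 column too far right; NT01, NT02, PolyIC01 and PolyIC02 keep their group either way and were used. The other 2 value columns were not used in any step.

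Of 107384 transcripts 86722 (80.8%) matched a RefSeq symbol (GRCm38.p6), holding 91.8% to 92.2% of each library's TPM, and were summed per gene. In 5 of the gene lists 1 symbol had no match in the table. A gene was tested where its mean reached 0.5 TPM, with limma 3.58.1 (R 4.3.3; trend, robust) on log2(TPM + 1), a scale that understates changes of low genes; p was adjusted over all 12520. Simulated data with few changed genes, their spread taken from these libraries, were used to check the fit. They cannot vouch for the calls here, where 60.8% of genes passed. Folds are ratios of mean TPM. Plots used matplotlib 3.10.9.

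The members and lists were chosen with earlier results of these data known. Given in full by rule were the 8 called members with the largest rise and the 8 with the largest fall, the 5 most abundant, the cross-presentation Rabs and pairs called in opposite directions, with up to 3 called genes per direction for other lists. Some genes that the rule would name are not reported here. Alternatives changed the pseudocount, filter, moderation, scaling, transcripts and libraries. Promoter windows come from RefSeq; 5 members (Rab2a, Rab4a, Rab7b, Rab18, Rab30) have none in the table.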

Additional observations from a re-analysis of the deposited data

How the results depend on the processing

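Of 34 called Rab genes 27 (18 higher, 9 lower) kept their call and direction under every alternative run; the others were Rab3a, Rab5a, Rab9, Rab11a, Rab13, Rab33b and Rab39. The number of Rab genes that rose lay between 18 and 22 and the number that fell between 9 and 14 over all settings, with 18 to 19 and 9 to 11 when single libraries were left out. The median log2 fold change of the Rab genes was 0.18 with a limit of 2 TPM (41 members) and 0.15 with curated transcripts only (42 members), and 0.0876 to 0.140 (without NT02) without single libraries. For GEFs, 3 fell in limma without trend or robust moderation, and 7 rose and 3 fell with curated transcripts; 3 (without PolyIC01) to 5 fell without single libraries. For effectors, 5 fell without a filter on low values, 10 rose with curated transcripts, and 5 (without NT01 or PolyIC02) to 10 fell without single libraries. For GAPs, 5 fell after quantile normalization. For prenylation and cycling genes, 2 rose after centring on the median, and 0 to 2 (without NT01) without single libraries. The cause was not tested. With a library left out, the lone one of its group is assumed to vary like the other group. Sign changes were seen in Rab42 (-0.13), Rab4a (-0.0178) and Rab6a (-0.0249) after quantile normalization, in Rab13 (-0.0171), Rab28 (-0.0674) and Rab4a (-0.0403) with curated transcripts, and without single libraries in Rab4a (-0.15 to 0.162), Rab28 (-0.00499 to 0.0572) and Rab42 (-0.0491 to 0.0808); of these, Rab13 alone had a call to lose. Rab5b passed with curated transcripts (adjusted p = 0.0403) and after quantile normalization (0.0489), and Rab6b after quantile normalization (0.0216, limma). No paired analysis was possible because the header leaves the replicate numbers of the columns unsettled. Depth is unknown, so the precision of low members such as Rab6b and Rab25 cannot be given from counts.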
